A study of Mus musculus with 30 samples.

Results

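RNA-seq counts of the Oas family were compared over 30 whole B16 tumors. B16 is a mouse melanoma cell line. The members were the 7 genes whose Ensembl identifiers carry the symbols Oas1a, Oas1b, Oas1g, Oas2, Oas3, Oasl1 and Oasl2, out of 39676 listed identifiers. Genes were tested where their counts averaged 10 or more per tumor, which left 15926. All 7 members were among them, and each reached that average in every tumor type by itself. The cells of all types had been transduced with the herpes simplex virus glycoprotein gB and firefly luciferase. A further retroviral vector, in which the murine stem cell virus promoter drives an insert linked to enhanced GFP, carried murine IFNα4 in B16-IFNA4 cells and IFNα9 in B16-IFNA9 cells, and no interferon in the empty vector control, B16-GFP. Cells were injected under the skin of young adult female C57BL/6 mice, and the tumors were taken on day 8 with 10 biological replicates of each type. Each type stands for 1 transduced cell line, and whether any line is a single clone is not given in the sources used here. The p-values therefore measure the spread between tumors of 1 line.

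The Oas genes encode 2′-5′-oligoadenylate synthetases, which are induced by type I interferon (IFN-I). On binding double-stranded RNA, the active enzymes join ATP into 2′-5′-linked oligoadenylates (2-5A), a second messenger of the antiviral response that leads to the breakdown of RNA. The mouse has many copies of Oas1 and a single Oas2 and Oas3, which contain repeated synthetase units. It also has a pair of Oas-like genes whose proteins carry ubiquitin-like domains: Oasl2 retains synthetase activity, whereas Oasl1 does not and is known as an inhibitor of Irf7 translation. ISGF3, a complex that contains Irf9, carries the IFN-I signal to promoters by binding the interferon-stimulated response element (ISRE).

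In GENCODE M21, an annotation of GRCm38, all members lie on chromosome 5. The Oas1, Oas2 and Oas3 genes form a cluster of 10 genes over 191320 bases, from 120730333 to 120921652. Oas2 (ENSMUSG00000032690.16) lies at 120730333 to 120749853 and Oas3 (ENSMUSG00000032661.9) at 120753098 to 120777661, both on the minus strand. Oas1b (ENSMUSG00000029605.16) follows on the plus strand at 120812635 to 120824163. Oas1g (ENSMUSG00000066861.14), at 120876142 to 120887613, and Oas1a (ENSMUSG00000052776.10), at 120896256 to 120907521, are on the minus strand. Oasl2 (ENSMUSG00000029561.17; 114896936 to 114912234) and Oasl1 (ENSMUSG00000041827.15; 114923240 to 114937915) lie side by side on the plus strand, 5792417 bases away from Oas2. The annotation lists Oas1b as a polymorphic pseudogene. This is the mouse flavivirus resistance gene, which a premature stop codon truncates in C57BL/6 and most laboratory strains.

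RefSeq promoter windows of GRCm38.p6, from 250 bases before to 50 bases after the start site, were found for 5 of the 7 members. Those of Oas1a, Oas3, Oasl1 and Oasl2 are shown, since among the 7 members these genes had the largest and the smallest fold changes. Capitals mark matches to the ISRE core GAAANNGAAA, which was searched on both strands together with its reverse complement TTTCNNTTTC.
Oas1a: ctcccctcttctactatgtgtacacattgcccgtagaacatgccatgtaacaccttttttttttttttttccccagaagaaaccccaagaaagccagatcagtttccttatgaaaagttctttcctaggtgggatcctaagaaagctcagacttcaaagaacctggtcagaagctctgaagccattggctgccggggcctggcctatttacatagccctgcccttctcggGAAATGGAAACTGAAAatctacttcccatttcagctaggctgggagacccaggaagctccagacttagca
Oas3: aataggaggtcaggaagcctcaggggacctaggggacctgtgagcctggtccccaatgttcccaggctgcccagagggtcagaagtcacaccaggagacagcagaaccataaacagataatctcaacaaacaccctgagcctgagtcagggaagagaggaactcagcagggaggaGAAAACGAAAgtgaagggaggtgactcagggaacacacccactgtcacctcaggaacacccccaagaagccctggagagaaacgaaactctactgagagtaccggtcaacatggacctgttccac
Oasl1: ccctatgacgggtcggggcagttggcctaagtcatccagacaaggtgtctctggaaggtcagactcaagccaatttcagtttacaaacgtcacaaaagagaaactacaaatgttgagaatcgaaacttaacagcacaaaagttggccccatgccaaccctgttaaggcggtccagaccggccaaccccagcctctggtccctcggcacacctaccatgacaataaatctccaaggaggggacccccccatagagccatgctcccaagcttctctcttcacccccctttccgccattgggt
Oasl2: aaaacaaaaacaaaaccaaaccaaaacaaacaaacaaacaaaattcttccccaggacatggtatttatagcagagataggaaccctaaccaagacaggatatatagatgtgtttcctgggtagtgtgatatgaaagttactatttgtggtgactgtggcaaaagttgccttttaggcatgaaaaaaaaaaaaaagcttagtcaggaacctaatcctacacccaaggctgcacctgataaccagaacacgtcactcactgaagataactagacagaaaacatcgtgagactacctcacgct
The windows are chr5:120907476-120907775 for Oas1a and chr5:120777610-120777909 for Oas3, both on the minus strand, and chr5:114922990-114923289 for Oasl1 and chr5:114896684-114896983 for Oasl2, both on the plus strand. Of all 32851 promoter windows of this length, 1131 (3.44%) held the core. The Oas1a window held 2 overlapping matches, GAAATGGAAA from position -20 and GAAACTGAAA from position -14 relative to the start site. In the Oas1g window the same letters began at -18 and -12, and the Oas1a and Oas1g windows were identical at 85.3% of aligned positions. Oas3 held 1 match, GAAAACGAAA from position -75. Neither the Oasl1 nor the Oasl2 window held these letters. For the gamma-activated site TTCNNNGAA, which reads the same on both strands and was present in 8.30% of all windows, the members had 1 match, in Oas1a from position -98. Matches are descriptions of the sequence and were not tested as binding sites.

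Libraries held 14598517 to 19788383 counts. The transgenes followed the labels. Ifna4 had 81 to 188 counts in each B16-IFNA4 tumor and 0 in all others, and Ifna9 had 55 to 148 counts in each B16-IFNA9 tumor and 0 in all others. Of the melanocyte markers, Tyr, Tyrp1 and Mitf were measured, and their summed level was at least 2157 CPM, that is, counts scaled to a common library size by TMM, in every tumor. The 4 leukocyte markers summed to at least 108 CPM, so RNA of both melanoma and host cells was present throughout. Markers of macrophages, T cells, NK cells, dendritic cells, fibroblasts, endothelium, keratinocytes and skeletal muscle were found as well. B16-GFP tumor 7 stood apart: it had the lowest TMM factor (0.768), the highest summed melanocyte markers (22818 CPM) and the lowest summed leukocyte markers (108 CPM) of its type. Values include it unless it is named as left out.

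B16-IFNA4 tumors were compared with B16-GFP tumors to ask how the family responded to local IFNα4. All 7 members were higher, by 4.72-fold (Oas1a) to 12.9-fold (Oas3), and in each of them every B16-IFNA4 tumor lay above every B16-GFP tumor. Of all genes tested, 31.3% were called higher and 34.1% lower, by the quasi-likelihood test of edgeR at an adjusted p under 0.05 (Benjamini-Hochberg, over all genes tested), and 8.50% lay wholly above. The median log2 fold change was 2.85 over the members and 0.00922 over all genes tested. IFNα9 was compared with the same B16-GFP tumors, so the 2 comparisons share their controls. All 7 members were again higher, by 3.53-fold (Oas1a) to 7.68-fold (Oas3), without overlap of the groups. Here, 26.9% of all genes were called higher, 28.9% were called lower and 4.44% lay wholly above, and the median log2 fold change was 2.28 over the members and -0.00311 over all genes. In bulk RNA, a change in the number of cells of a type and a change in RNA per cell cannot be told apart. Beside these rises, all 4 leukocyte markers were higher in both IFN-I–secreting types: their summed level was 108 to 424 CPM in B16-GFP (median 316), 677 to 1373 CPM in B16-IFNA4 (median 1051) and 496 to 992 CPM in B16-IFNA9 tumors (median 830). All 3 measured melanocyte markers were lower in both, with summed medians of 8969, 3051 and 4530 CPM. Of the other cells, the NK cell markers were higher in both types (3 of 3), as were T cell markers (5 of 5 in B16-IFNA4 and 4 of 5 in B16-IFNA9) and dendritic cell markers (4 of 4 and 3 of 4). Macrophage markers were higher for 1 of 3 in both, fibroblast markers for 2 of 4 and 1 of 4, and keratinocyte markers for 2 of 3 and 0 of 3. Endothelial markers were lower for 2 of 3 in both and higher for 1 of 3 in B16-IFNA4, and skeletal muscle markers were lower for 0 of 3 and 2 of 3. The part of these cell types in the rises was not tested.

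**Figure D1:**
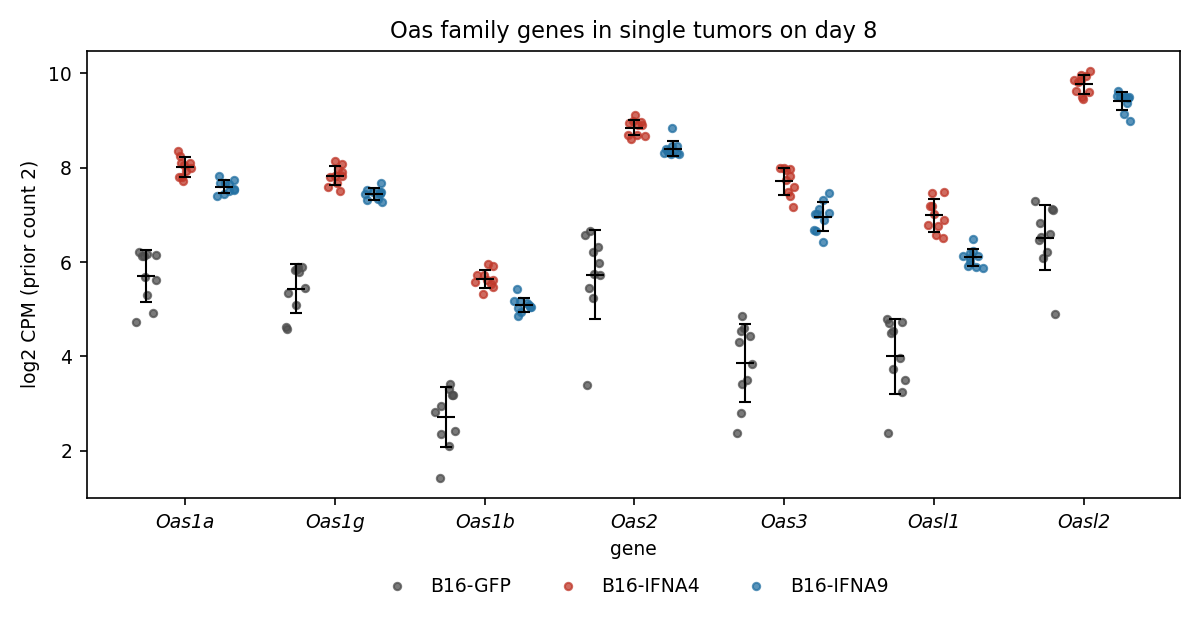
Level of each Oas family gene in single tumors, as log2 CPM with a prior count of 2 (vertical axis), by gene (horizontal axis). Each point is 1 tumor, with B16-GFP in grey, B16-IFNA4 in red and B16-IFNA9 in blue; bars give the mean ± SD of 10 tumors. For every gene the B16-GFP tumors lie below both other types, and the lowest B16-GFP point of Oas2, at 3.39, is tumor 7.

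Oas1a encodes a classical synthetase and had the smallest fold changes of the members. Its level was 26.5 to 73.8 CPM in B16-GFP tumors (median 60.3; 55.2 ± 18.4, mean ± SD, n = 10), 209 to 329 CPM in B16-IFNA4 tumors (median 261; 261 ± 37.9) and 169 to 225 CPM in B16-IFNA9 tumors (median 195; 195 ± 18.1). The 10 tumors of either IFN-I–secreting type were thus higher than any control tumor, whereas the ranges of B16-IFNA4 and B16-IFNA9 overlapped. The log2 fold change over B16-GFP was 2.24 ± 0.150 (SE; adjusted p = 1.46e-13) in B16-IFNA4 and 1.82 ± 0.148 (adjusted p = 2.32e-11) in B16-IFNA9 tumors. Oas1g, a neighboring copy of Oas1a, had a nearly identical profile. It was at 23.9 to 59.8 CPM in B16-GFP (median 49.3), 181 to 282 CPM in B16-IFNA4 (median 227) and 154 to 204 CPM in B16-IFNA9 tumors (median 177), with log2 fold changes of 2.34 ± 0.142 (adjusted p = 2.00e-14) and 1.94 ± 0.141 (adjusted p = 1.95e-12) over B16-GFP. The 2 genes cannot be fully separated by reads of 50 bases. Of the 50-base stretches in Oas1a transcripts, 57.6% also occurred in Oas1g, and 45.7% of those of Oas1g also occurred in another gene. With the counts of all 8 Oas1 genes summed, the log2 fold change was 2.22 ± 0.140 in B16-IFNA4 (adjusted p = 3.62e-14) and 1.80 ± 0.138 in B16-IFNA9 tumors (adjusted p = 6.45e-12).

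Oas1b is the truncated flavivirus resistance gene. B16-GFP tumors had 2.59 to 10.5 CPM (median 7.31), B16-IFNA4 tumors 39.9 to 61.6 CPM (median 48.9) and B16-IFNA9 tumors 28.8 to 42.9 CPM (median 33.5). Both IFN-I–secreting types were above the controls in every tumor, by 2.84 ± 0.165 on the log2 scale in B16-IFNA4 (adjusted p = 7.66e-15) and by 2.28 ± 0.162 in B16-IFNA9 (adjusted p = 1.37e-12). Only 2.98% of its 50-base stretches occurred in another gene, so its counts were less open to sharing than those of Oas1a.

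The multi-unit synthetases differed in their range. Oas2 was at 10.3 to 101 CPM in B16-GFP (median 58.1), 394 to 553 CPM in B16-IFNA4 (median 479) and 315 to 457 CPM in B16-IFNA9 tumors (median 324). Its lowest control value came from B16-GFP tumor 7, and its highest B16-IFNA9 value from tumor 10. The log2 fold change over B16-GFP was 2.93 ± 0.220 in B16-IFNA4 (adjusted p = 1.76e-12) and 2.48 ± 0.216 in B16-IFNA9 tumors (adjusted p = 9.12e-11). Oas3 had the largest change of the family. It was at 5.08 to 29.0 CPM in B16-GFP tumors (median 16.8), at 143 to 255 CPM in B16-IFNA4 tumors (median 220) and at 85.7 to 177 CPM in B16-IFNA9 tumors (median 130). The log2 fold change was 3.69 (95% interval 3.21 to 4.16; SE 0.234; adjusted p = 4.15e-14) with IFNα4, which ranked 93 among all 15926 genes from the highest, and 2.94 (2.48 to 3.40; SE 0.227; adjusted p = 7.64e-12) with IFNα9. Neither Oas2 nor Oas3 shared more than 0.521% of its 50-base stretches with another gene.

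Of the Oas-like genes, Oasl1 encodes the catalytically inactive protein that restrains Irf7 translation. It had 5.08 to 27.7 CPM in B16-GFP (median 18.9), 91.0 to 180 CPM in B16-IFNA4 (median 125) and 58.3 to 89.9 CPM in B16-IFNA9 tumors (median 69.0). The 3 types formed 3 separate ranges, which no other member did. The log2 fold change over B16-GFP was 2.85 ± 0.213 in B16-IFNA4 (adjusted p = 1.66e-12) and 1.94 ± 0.207 in B16-IFNA9 tumors (adjusted p = 6.86e-09). Oasl2, its active neighbor, had 29.7 to 157 CPM in B16-GFP (median 94.9), 701 to 1061 CPM in B16-IFNA4 (median 914) and 513 to 794 CPM in B16-IFNA9 tumors (median 721). The IFN-I–secreting types overlapped widely, since 3 of 10 B16-IFNA9 tumors were below all B16-IFNA4 tumors. Over B16-GFP the log2 fold change was 3.14 ± 0.185 (adjusted p = 9.79e-15) and 2.79 ± 0.182 (adjusted p = 2.93e-13), respectively. An antisense gene, Gm13822, shares 38 exonic bases with Oasl1, and the strand setting of the counting is not given in the sources used here, so reads there cannot be assigned with certainty.

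B16-GFP tumor 7 set the lowest control value of 5 members. Without it, the lowest was 4.19 CPM for Oas1b, 37.6 CPM for Oas2, 6.88 CPM for Oas3, 9.41 CPM for Oasl1 and 68.0 CPM for Oasl2. All 7 members were then still called higher in both comparisons. The log2 fold changes then ran from 2.19 (Oas1a) to 3.60 (Oas3) in B16-IFNA4 and from 1.75 (Oas1a) to 2.84 (Oas3) in B16-IFNA9 tumors. Every alternative setting and each of the 30 fits that left out 1 tumor also called all members higher in both comparisons (5 of 5 features where the Oas1 genes were summed).

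**Figure D2:**
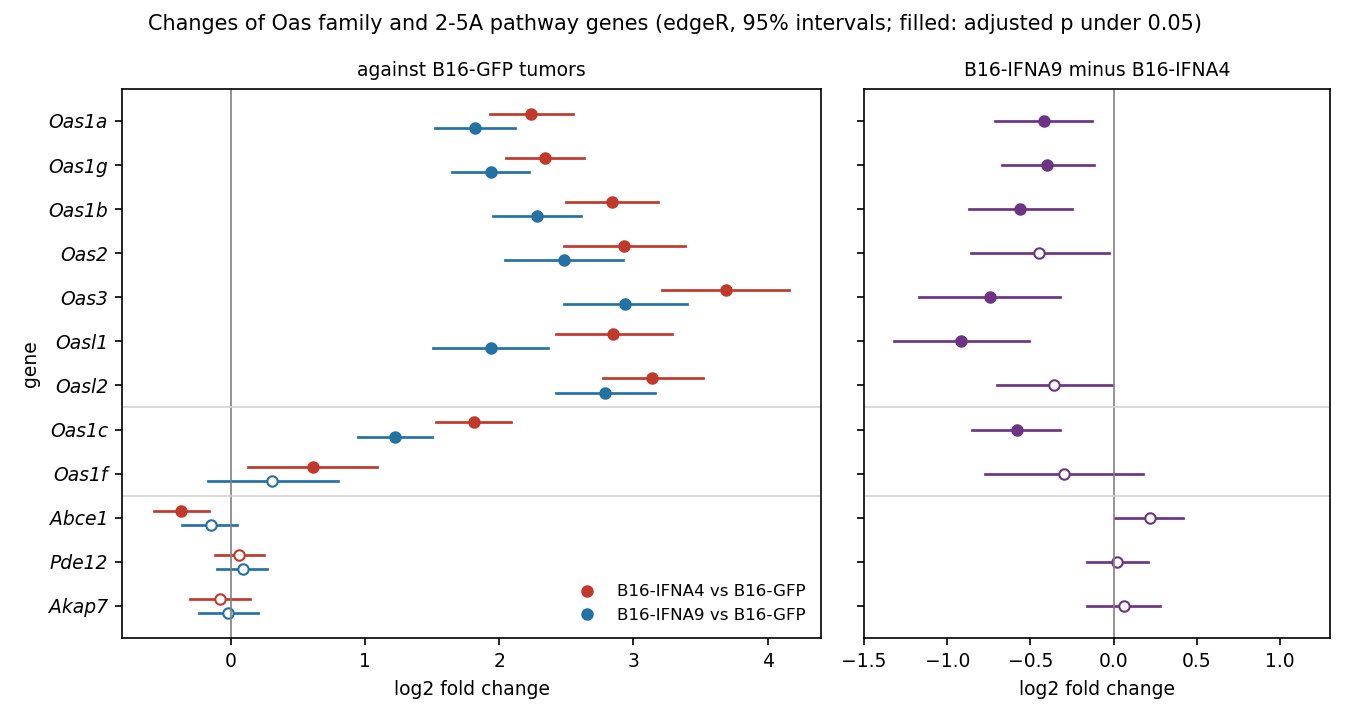
Log2 fold changes (horizontal axis) of Oas family genes, the Oas1 genes Oas1c and Oas1f, and genes of the 2-5A pathway (vertical axis), against B16-GFP tumors on the left and between the IFN-I–secreting types on the right. Points are edgeR estimates, lines 95% intervals, and filled points have an adjusted p under 0.05; the members lie from 1.82 to 3.69 on the left and from -0.92 to -0.36 on the right, and the 2-5A pathway genes from -0.37 to 0.09 on the left.

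The direct comparison of the IFN-I–secreting types asked whether the family differed between tumors with IFNα4 and tumors with IFNα9. Ifna4 was at 7.41 ± 1.44 CPM in B16-IFNA4 and Ifna9 at 5.50 ± 1.84 CPM in B16-IFNA9 tumors (mean ± SD, n = 10). Interferon subtype, transgene level and cell line cannot be told apart in this contrast. Levels were lower in B16-IFNA9 tumors for 5 of 7 members, Oas1a, Oas1b, Oas1g, Oas3 and Oasl1, and Oas2 and Oasl2 did not pass the test. Of all genes tested, 7.25% were called lower and 10.5% higher, and 0.741% lay wholly below, as 1 member, Oasl1, did. The median log2 fold change was -0.45 over the members and -0.00551 over all genes tested. The mean level in B16-IFNA9 tumors, as a percentage of that in B16-IFNA4 tumors, was 52.9% for Oasl1, 59.7% for Oas3, 67.9% for Oas1b, 73.3% for Oas2, 74.7% for Oas1a, 75.9% for Oas1g and 78.2% for Oasl2. The largest difference was thus in the inactive inhibitor of Irf7 translation and the smallest in its active neighbor.

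Oasl1 differed by -0.92 on the log2 scale (95% interval -1.32 to -0.51; adjusted p = 0.00158), with all 10 B16-IFNA9 tumors below all B16-IFNA4 tumors. For Oas3 the difference was -0.74 (-1.17 to -0.32; adjusted p = 0.0126) with 8 of 10 tumors below, and for Oas1b it was -0.56 (-0.87 to -0.25; adjusted p = 0.0102) with 9 of 10 below. These 3 genes were called in every alternative and in every fit without 1 tumor, with adjusted p up to 0.00679, 0.0273 and 0.0232, respectively. Differences between members in this contrast were not tested against each other.

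Oas1a and Oas1g were near the threshold. The difference was -0.42 (-0.71 to -0.13; adjusted p = 0.0394) for Oas1a and -0.40 (-0.67 to -0.12; adjusted p = 0.0390) for Oas1g, with 8 of 10 B16-IFNA9 tumors below all B16-IFNA4 tumors in both. Leaving out 1 tumor ended the call of Oas1a in 12 of 30 fits, those without B16-IFNA4 tumor 1, 4, 5, 6, 7 or 10 or B16-IFNA9 tumor 1, 3, 4, 6, 9 or 10 (adjusted p = 0.0507 to 0.0766). For Oas1g this was so in 13 fits, those without B16-IFNA4 tumor 1, 2, 5, 7 or 10 or B16-IFNA9 tumor 1, 3, 4, 5, 6, 7, 9 or 10 (adjusted p = 0.0501 to 0.0766). Both calls were also lost with library totals alone, with no filter on low counts and with the replicate block (adjusted p = 0.0548 to 0.0704), which left 3 members called lower. With all 8 Oas1 genes summed, the difference was -0.421 ± 0.134 (SE; adjusted p = 0.0264).

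Oas2 and Oasl2 did not pass the test with all 30 tumors in the fit. For Oas2 the difference was -0.45 (-0.86 to -0.03; adjusted p = 0.130), although 9 of 10 B16-IFNA9 tumors were below all B16-IFNA4 tumors. For Oasl2 it was -0.36 (-0.70 to -0.01; adjusted p = 0.154). Both were called lower without B16-GFP tumor 7, at -0.459 ± 0.131 (adjusted p = 0.0108) for Oas2 and -0.366 ± 0.124 (adjusted p = 0.0296) for Oasl2. They were also called when only the 20 tumors compared were fitted, at -0.451 ± 0.0796 (adjusted p = 0.000253) and -0.358 ± 0.0896 (adjusted p = 0.00495). The estimates moved little between these fits, and the standard errors fell. Over the fits without 1 tumor, the number of members called lower ran from 3 to 7, and 7 were called only without B16-GFP tumor 7.

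**Figure D3:**
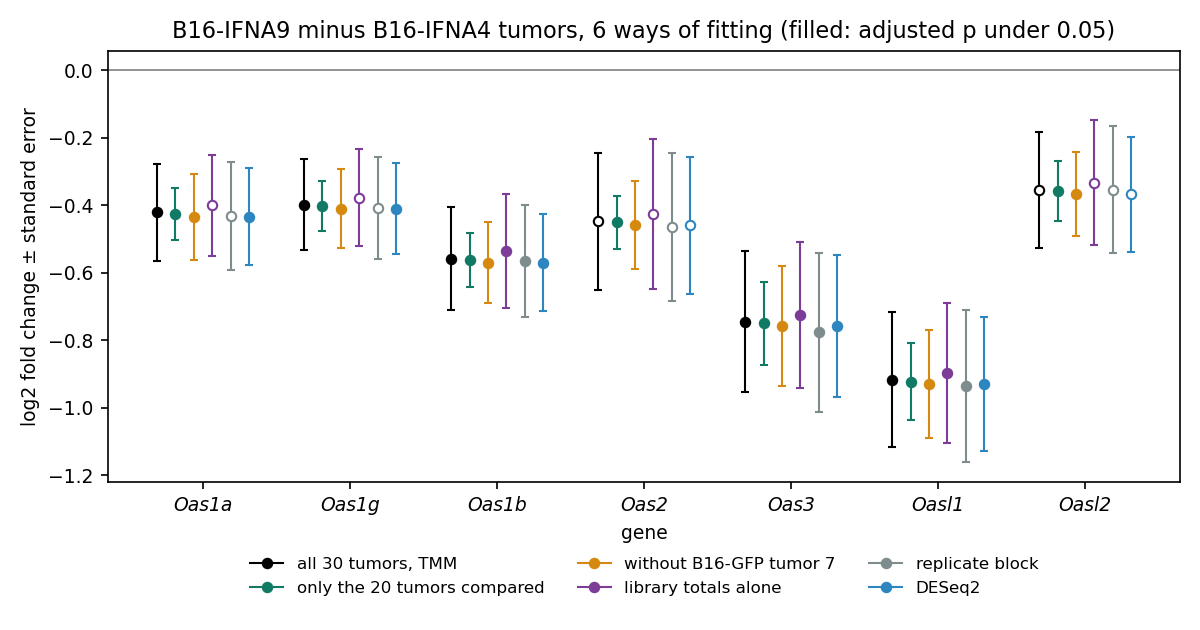
Log2 fold change of each Oas family gene in B16-IFNA9 over B16-IFNA4 tumors (vertical axis, bars are standard errors) under 6 ways of fitting (colors), by gene (horizontal axis). Filled points have an adjusted p under 0.05; all points are below 0, Oas1b, Oas3 and Oasl1 are filled throughout, and Oas2 and Oasl2 are filled only with the 20 tumors compared and without B16-GFP tumor 7.

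Markers of other cells were measured in the same contrast. None of the 4 leukocyte markers was called different between the IFN-I–secreting types. Of the NK cell markers 2 of 3 were lower in B16-IFNA9, with summed levels of 19.3 to 72.5 CPM (median 44.6) against 38.3 to 105 CPM (median 77.3) in B16-IFNA4, and 2.23 to 9.51 CPM in B16-GFP tumors. Of the 3 measured melanocyte markers 2 were higher in B16-IFNA9, with summed levels of 3367 to 8916 CPM (median 4530) against 2157 to 3630 CPM (median 3051). All 3 endothelial markers, 2 of 3 skeletal muscle markers and 1 of 4 fibroblast markers were lower in B16-IFNA9, and of 4 dendritic cell markers 1 was higher and 1 lower. No T cell (0 of 5), macrophage (0 of 3 measured) or keratinocyte marker (0 of 3) was called. The part of these cells in the lower Oas levels was not tested.

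Levels can be compared between genes only per length, as CPM per kilobase of annotated exon (RPKM). Since Oas1a and Oas1g share much of their sequence and the treatment of reads with several alignments is not given in the sources used here, their RPKM, their places in the order and all shares of the summed RPKM are uncertain. In B16-GFP tumors Oas1a was highest at 29.3 ± 9.75 RPKM (mean ± SD, n = 10), followed by Oas1g at 19.5 ± 6.11, Oasl2 at 15.6 ± 6.01, Oas2 at 13.7 ± 6.17, Oasl1 at 6.89 ± 3.10, Oas1b at 3.51 ± 1.33 and Oas3 at 2.34 ± 1.14 RPKM, and each gene overlapped with the next in this order. Without tumor 7 the order of the means was the same, from 30.8 ± 9.09 RPKM for Oas1a to 2.52 ± 1.05 RPKM for Oas3 (n = 9). In B16-IFNA4 tumors Oas1a (138 ± 20.1 RPKM) and Oasl2 (138 ± 19.4 RPKM) were level, since Oas1a was above Oasl2 in 5 of 10 tumors. Oas2 (104 ± 11.9) and Oas1g (98.4 ± 13.8) came next and overlapped. A gap without overlap separated them from Oasl1 (49.9 ± 12.0), Oas3 (30.2 ± 5.71) and Oas1b (25.3 ± 3.41 RPKM), whose neighbors overlapped. B16-IFNA9 tumors had the same gap between Oas1g (74.6 ± 6.27 RPKM) and Oasl1 (26.4 ± 3.60 RPKM), with Oasl2 first at 108 ± 13.4 and Oas1b last at 17.2 ± 1.91 RPKM. Oas3, the member with the lowest mean RPKM in the controls and the largest fold change over them, made up 2.58% of the summed family RPKM in B16-GFP, 5.16% in B16-IFNA4 and 4.25% in B16-IFNA9 tumors. Oas1a went from 32.3% to 23.7% and 24.4%, and Oasl2 from 17.2% to 23.6% and 25.5%. The B16-GFP shares without tumor 7 were 2.60% for Oas3, 31.8% for Oas1a and 17.4% for Oasl2. The summed level of the 7 members was 108 to 449 CPM in B16-GFP (median 289; lowest 198 and median 302 without tumor 7), 1789 to 2583 CPM in B16-IFNA4 (median 2294) and 1420 to 1884 CPM in B16-IFNA9 tumors (median 1619).

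Within a type, the members varied most widely in the controls. The pooled SD of log2 CPM over the 7 members was 0.72 in B16-GFP, 0.24 in B16-IFNA4 and 0.19 in B16-IFNA9 tumors, and 0.52 in B16-GFP without tumor 7. The first principal component of the 7 genes held 86.4%, 78.8% and 54.1% of their variance within these types, respectively, and 79.3% in B16-GFP without tumor 7. The same values were not computed for other genes, so they are not shown to be particular to this family. Oas1a and Oas1g share much of their sequence, which can raise their common variance. B16-GFP tumor 7 was lowest in 5 of 7 members, by a mean of -1.42 from its type's mean, and tumor 10 was lowest in Oas1a and Oas1g. B16-GFP tumors 4, 5, 8 and 9 were above the mean in all 7 members. Ptprc, which encodes the leukocyte surface protein CD45, was at 4.30 log2 CPM in tumor 7 against 5.65 to 6.88 in the other B16-GFP tumors. The next lowest mean deviations of the members were in tumors 10 (-0.61), 1 (-0.24) and 2 (-0.15). Ptprc was at 6.55, 6.82 and 5.65 log2 CPM there, respectively. In B16-IFNA4, tumor 8 was lowest in 5 members and tumor 7 highest in 4, and in B16-IFNA9, tumor 8 was highest in 6. The 7 values of a tumor come from 1 library, so common deviations of the members are not independent observations.

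**Figure D4:**
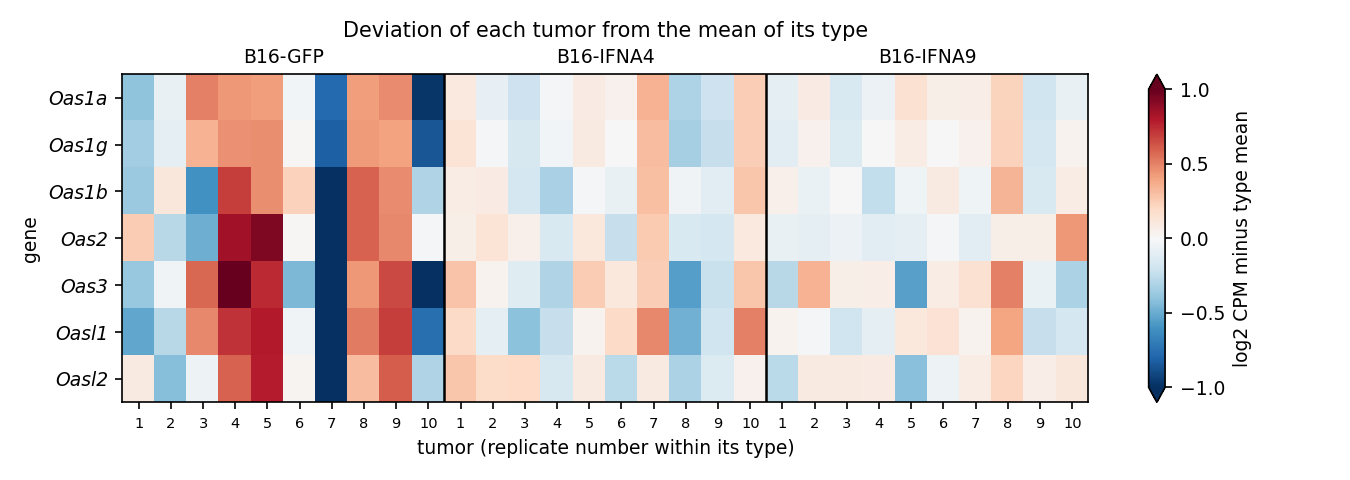
Deviation of each tumor from the mean of its type, in log2 CPM (color, with values past ±1 drawn as the end colors), for the 7 Oas family genes (vertical axis) and the 30 tumors by replicate number within type (horizontal axis). The column of B16-GFP tumor 7, with a mean of -1.42, is the darkest; in B16-IFNA9 all columns but that of tumor 8 hold both colors.

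Profiles over all 30 tumors were compared by the root mean square (RMS) difference of log2 CPM after centring each gene on its B16-GFP mean, with tumor 7 included throughout. Among the members, Oas1a and Oas1g were closest at 0.10, the pair that shares most sequence, and Oas2 and Oasl2 followed at 0.27, although they lie apart on the chromosome. Oas1a and Oas3 were farthest at 1.16. Over all genes tested, the genes outside the family nearest to Oas1a were Ifi35 (0.20), Ube2l6 (0.26) and Bst2 (0.27), and those nearest to Oas1g were Rtp4 (0.23), Ifi35 (0.25) and Rab19 (0.25). Helz2 was nearest to both Oas1b (0.25) and Oasl1 (0.26). Those nearest to Oas2 were Xaf1 (0.26), Trim34a (0.27) and Trim34b (0.28), and Oasl2 was closest to Trim30d (0.17) and Trim30a (0.18). Oas3 had no gene as near, with Ms4a4c at 0.33, Ifi206 at 0.36 and Zbp1 at 0.37. The measure depends on the size of the change, so it finds genes that changed by like amounts.

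The Oas1 cluster holds 5 further genes. Of these, 4 were tested, and Oas1d, at 0 to 6 counts in B16-GFP, 2 to 22 in B16-IFNA4 and 5 to 11 in B16-IFNA9 tumors, was not. Oas1e and Oas1h passed the filter only through the IFN-I–secreting types, so their counts are given without a test against B16-GFP. Oas1c rose from 3.95 ± 1.16 CPM in B16-GFP to 13.9 ± 1.82 in B16-IFNA4 and 9.26 ± 1.07 CPM in B16-IFNA9 tumors, with log2 fold changes of 1.81 (adjusted p = 1.77e-12) and 1.22 (adjusted p = 1.17e-08), and it was lower in B16-IFNA9 than in B16-IFNA4 by -0.58 (adjusted p = 0.00199). Its start site lies 121 bases from that of Oas1b, on the other strand. An antisense gene, Gm43069, shares 227 exonic bases with Oas1c, and 15.1% of the 50-base stretches of Oas1c occurred in another gene. Reads there cannot be assigned with certainty. Oas1h had 0 to 11 counts in B16-GFP tumors, 14 to 63 in B16-IFNA4 and 23 to 48 in B16-IFNA9 tumors. Its level did not pass the test between the IFN-I–secreting types (log2 fold change -0.01, 95% interval -0.51 to 0.48; adjusted p = 0.977). Oas1e had 1 to 19 counts in B16-GFP, 9 to 52 in B16-IFNA4 and 11 to 44 in B16-IFNA9 tumors. Oas1f had log2 fold changes over B16-GFP of 0.61 in B16-IFNA4 (adjusted p = 0.0247) and 0.31 in B16-IFNA9 tumors (adjusted p = 0.260).

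Of the other genes of the 2-5A pathway, 3 are described here. Abce1, a factor of ribosome recycling that is also known as an inhibitor in this pathway, was lower in B16-IFNA4 by -0.37 (adjusted p = 0.00203) and had a log2 fold change of -0.15 in B16-IFNA9 tumors (adjusted p = 0.199). Pde12 and Akap7, whose proteins degrade 2-5A, had log2 fold changes of -0.08 to 0.09 over B16-GFP, with adjusted p from 0.431 to 0.899.

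Of 8 other nucleic acid sensor genes on a list, 7 were tested and 6 were higher in both IFN-I–secreting types. Log2 fold changes over B16-GFP in B16-IFNA4 and B16-IFNA9 tumors were 3.03 and 2.66 for Dhx58, 2.80 and 2.32 for Ifih1, the gene of the RNA sensor MDA5, and 2.49 and 2.16 for Ddx58, that of RIG-I. They were 2.06 and 1.95 for Eif2ak2, the kinase PKR, which like the synthetases is switched on by double-stranded RNA. Tlr3 and Cgas also rose, and the adaptor Mavs was not called (-0.09 with adjusted p = 0.301, and 0.04 with adjusted p = 0.693). Between the IFN-I–secreting types, 1 of the 7, Ifih1, was lower in B16-IFNA9 (-0.48; adjusted p = 0.0116). Tmem173 and Stat2 were not analysed here.

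Among the regulators, Irf9 of ISGF3 rose in both types, with a log2 fold change of 1.71 in B16-IFNA4 and of 1.43 in B16-IFNA9 tumors. The difference between these types was -0.28 (adjusted p = 0.0784) and did not pass the test, although all 10 B16-IFNA9 tumors were below all B16-IFNA4 tumors. Irf7, the transcript whose translation Oasl1 inhibits, was at 19.5 to 102 CPM in B16-GFP (median 59.0), 527 to 820 CPM in B16-IFNA4 (median 699) and 292 to 442 CPM in B16-IFNA9 tumors (median 349). Like Oasl1 it formed 3 ranges without overlap, and it was lower in B16-IFNA9 than in B16-IFNA4 by -0.96 (adjusted p = 7.38e-04). The antiviral genes Mx1, Mx2, Ifit1 and Ifit3 were also lower there, by -1.22 (adjusted p = 7.00e-05), -1.01 (adjusted p = 1.43e-04), -0.76 (adjusted p = 0.00213) and -0.79 (adjusted p = 0.00100), respectively, each without overlap of the types. Ifit2 was at -0.43 (adjusted p = 0.0931). Of these 5 genes all had risen in both types over B16-GFP, by 2.44 (Mx2 in B16-IFNA9) to 4.25 (Mx1 in B16-IFNA4) on the log2 scale.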

How the data were processed

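Total RNA of whole tumors was made into stranded mRNA libraries and sequenced with single-end reads of 50 bases. Per the paper's methods and the submitters' processing notes, the authors checked reads with FastQC 0.11.3, aligned them with HISAT2 2.0.4 and used summarizeOverlaps for the count of each gene. The genome is named mm10 in the notes and mm11 in the paper. The deposited values are raw counts. Annotation release, overlap mode, strand setting and the treatment of reads with several alignments are not given in the sources used here.

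Of the 39676 identifiers, 39495 were in GENCODE M21 (GRCm38), which gave symbols, positions and exon lengths. In R 4.3.3 with edgeR 4.0.16, the 15926 genes averaging 10 or more counts were scaled by TMM and fitted over all 30 tumors by type (quasi-likelihood test). P-values were adjusted over all genes tested by Benjamini-Hochberg, with calls at adjusted p under 0.05. Standard errors were derived from the F statistics. Fold changes and CPM use TMM-scaled libraries, and log2 CPM a prior count of 2. The named genes were the members, the other Oas1 genes, and fixed lists of the 2-5A pathway, nucleic acid sensors, ISGF3 with Irf7, Mx and Ifit genes and cell type markers, plus the 3 genes nearest to each member. Some genes of these lists are not reported here. Members and lists were chosen with earlier results of these data known. Alternatives were DESeq2 1.42.0, other scalings and filters, fewer tumors, a replicate block and summed Oas1 counts. Figures were drawn with matplotlib 3.10.9 in Python 3.11.15.

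The fit was tested on simulated data with 15855 genes, of which 99 changed 1.5-fold and 100 changed 2-fold. All genes were given the same relative spread. The fit recovered 90.0% of 2-fold and 27.3% of 1.5-fold changes for B16-IFNA4 against B16-GFP, and 89.0% and 30.3% for B16-IFNA9 against B16-IFNA4. The changes were placed in B16-IFNA4 only, so B16-IFNA9 against B16-GFP held no true change, and 0 genes were called there. Replicate numbers did not pair tumors: correlations of the deviations of tumors with the same number ran from -0.267 to 0.302.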

Additional observations from a re-analysis of the deposited data

Results flagged for a closer look

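In 3 of 21 searched groups of 10 tumors, a single tumor lay far from the others, and chance gives about 1 in 20. Oas2 in B16-GFP tumor 7 was at 3.39 log2 CPM, while the other 9 tumors were at 5.24 to 6.66. Oasl2 in the same tumor was at 4.90, with the others at 6.09 to 7.30. Both values come from 1 library, which also had the lowest leukocyte and the highest melanocyte marker sums of its type. Oas2 in B16-IFNA9 tumor 10 was at 8.84 log2 CPM, above the others at 8.30 to 8.46. In that tumor none of the other 6 members was the highest of its type.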

How the results depend on the processing

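All 7 members stayed higher in B16-IFNA4 and in B16-IFNA9 than in B16-GFP tumors under every alternative, and with all Oas1 genes summed all 5 features did. For B16-IFNA9 against B16-IFNA4, no estimate changed sign. The number of members called lower was 5 of 7 with all 30 tumors, 3 with library totals alone, 3 with no filter on low counts, 3 with the replicate block and 3 of 5 features with all Oas1 genes summed. It was 5 with DESeq2, with DESeq2's size factors in edgeR and with edgeR's filterByExpr, and 7 with only the 20 tumors compared. Without 1 tumor, it ran from 3 to 7 (3 in 10 fits, 4 in 5, 5 in 14 and 7 in 1).

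The calls lost with library totals, no filter or the replicate block were those of Oas1a (adjusted p = 0.0597, 0.0548 and 0.0693) and Oas1g (adjusted p = 0.0647, 0.0569 and 0.0704), and the cause was not tested. The replicate block changed no other call. Tumors shared only a number: the correlation of the deviations was over 0.1 in 2, 2 and 0 of 10 pairs for the 3 pairs of types, and 1, 1 and 0 tumors correlated best with their own number. In the simulated data most 1.5-fold changes were left uncalled. Far fewer genes changed there than were called in these data, and all genes had the same relative spread. The simulated share therefore does not measure what the test missed here.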
